A study of Homo sapiens with 6 samples.

Results

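The splicing factors described here are the hnRNP and SR proteins, taken as every gene on the array whose name starts with HNRP or HNRNP followed by a letter, or with SFRS followed by a number, or is SRSF and a number. This rule used names only and found 40 of the 27759 gene names on the array, with 86 of its 41000 probes. They fell into 23 hnRNP genes with 56 probes, 10 canonical SR genes with 18 probes and 7 other genes named SFRS with 12 probes, among them SFRS10 (TRA2B) and SFRS8 (SFSWAP), whose present names place them outside the SR family proper. Expression was measured in RH36, an embryonal rhabdomyosarcoma cell line without the PAX3/FOXO1 translocation, on a 1-colour Agilent array of the human transcriptome. One group of 3 arrays came from cells transfected with pre-miR-27a, a synthetic precursor of the microRNA miR-27a, and the other group of 3 arrays from cells that received a negative control precursor, called pre-control. Per the labels, precursor was given at 10 nM and the pre-miR-27a cells were collected after 48 hours. The labels give no collection time for the pre-control cells. The study's methods give another concentration and time, and these data do not tell which of them holds for the arrays. Both groups are 1 cell line, transfected transiently, and the labels call the arrays of a group biological replicates without saying how they were made independent, so the p-values below measure the spread between these arrays.

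hnRNP proteins coat newly made pre-mRNA, and many of them keep the splicing machinery away from exons. SR proteins carry RNA recognition motifs and a tail rich in arginine and serine, bind enhancer sequences in exons and help the U1 and U2 particles to find the splice sites, after kinases of the SRPK and CLK families have phosphorylated the tail. A microRNA guides a silencing complex to mRNAs that pair with its seed, which usually lowers those mRNAs.

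The mature 3p strand of miR-27a is shown because the study's methods name the precursor by it, and the capitals mark the seed, bases 2 to 8 from the 5′ end (RefSeq, GRCh38.p14, chr19:13836447-13836467, minus strand).
hsa-miR-27a-3p: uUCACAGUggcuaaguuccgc
No target site in a member gene was searched here, and mature miR-27a itself was not measured by these mRNA probes.

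Of the 86 probes, 85 entered the comparison, and these 85 were found and well above background on all 6 arrays. The exception was the only probe of HNRNPG-T (RBMXL2), a relative of RBMX, which was found on 3 arrays and well above background on 0. Spots well above background made up 69.9% to 73.9% of an array in the pre-control group and 74.1% to 78.0% in the pre-miR-27a group. Spots not found numbered 1559 to 1750 per array in the pre-control group and 3487 to 4153 in the pre-miR-27a group. The median local background was 74.5 to 76 against 52.5 to 53 intensity units, and 0 spots were saturated. The 3 pre-control arrays shared 1 slide and 1 scan and the 3 pre-miR-27a arrays another, so slide and treatment cannot be told apart in any result below. The 8 spike-in RNAs well above background on all arrays, added during labelling and not made by the cells, gave signals 0.05 to 0.42 log2 units (median 0.28) higher with pre-miR-27a, each of them. All 13 measured markers of muscle and rhabdomyosarcoma, MYOD1 among them, stood well above background on all 6 arrays. Each marker gene, here and below, was taken by its brightest probe. Of the 13, 10 differed by less than 0, and 0 were called by limma. At an unadjusted p under 0.05, 1 was higher and 3 lower, and 1 higher and 3 lower with the replicate number as a block. Among less bright probes of this list, only that of CHRNA1 was called, as higher (0.95, against -0.15 on its brightest probe). MYOD1 differed by -0.45, MYOG by -0.95 and CDH15 by -0.35, with all pre-miR-27a arrays below all pre-control arrays and adjusted p of 0.0787, 0.140 and 0.0561 (0.0363, 0.0334 and 0.0457 with the block). The summed intensity of the list was 285033 to 437717 in pre-control and 253583 to 406334 in pre-miR-27a. Of the 7 blood cell markers 3 were well above background on no array and 3 were called lower, and the list's summed intensity was 3775 to 4489 in pre-control and 2136 to 2304 in pre-miR-27a. Of the 5 measured epithelial markers 3 were well above background on no array, and 1 was called lower. That was KRT14, at -0.82 on its brightest probe and 1.14 on its other one. The list's summed intensity was 379 to 452 in pre-control and 80.9 to 295 in pre-miR-27a. Missing values were left out of these sums, among them KRT14 on pre-miR-27a replicate 3 and CLDN4 on pre-miR-27a replicate 2. The sums of those arrays thus hold fewer genes. The part of these markers in the results on splicing factors was not tested, and in such bulk RNA fewer cells of a type and less RNA per cell cannot be told apart.

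The first question was whether the transcripts of these splicing factors differed between pre-miR-27a and pre-control cells. After quantile normalization more of them were higher than lower. By limma with Benjamini-Hochberg adjustment over all 36469 probes and a threshold of 0.05, 10 of the 85 probes rose, in 8 genes, and 1 probe fell. Together these were 12.9% of the member probes, and 7.83% of all probes were called, 3.95% as higher and 3.88% as lower. With 75th percentile scaling in place of quantile normalization the members' counts were again 10 and 1, whereas over all probes 1275 were called higher and 1981 lower, against 1440 and 1416. That scaling took the median difference by brightest probe to 0.0014 for hnRNP and -0.013 for canonical SR genes. For the other SFRS-named genes it was then 0.16, and over all probes -0.09. The general shift of the members given next, after quantile normalization, thus depended on the scaling. The median log2 difference, pre-miR-27a minus pre-control, was 0.14 over the 85 member probes and -0.02 over all probes, with 64 member probes above and 21 below 0. The pre-miR-27a and pre-control arrays did not overlap for 31 member probes, 24 higher and 7 lower, which is 36.5% of them where 32.5% of all probes did not overlap (14.8% higher and 17.8% lower). With the replicate number as a block, 13 member probes were higher and 2 lower, beside 14.9% of all probes called, 7.24% higher and 7.62% lower.

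**Figure D1:**
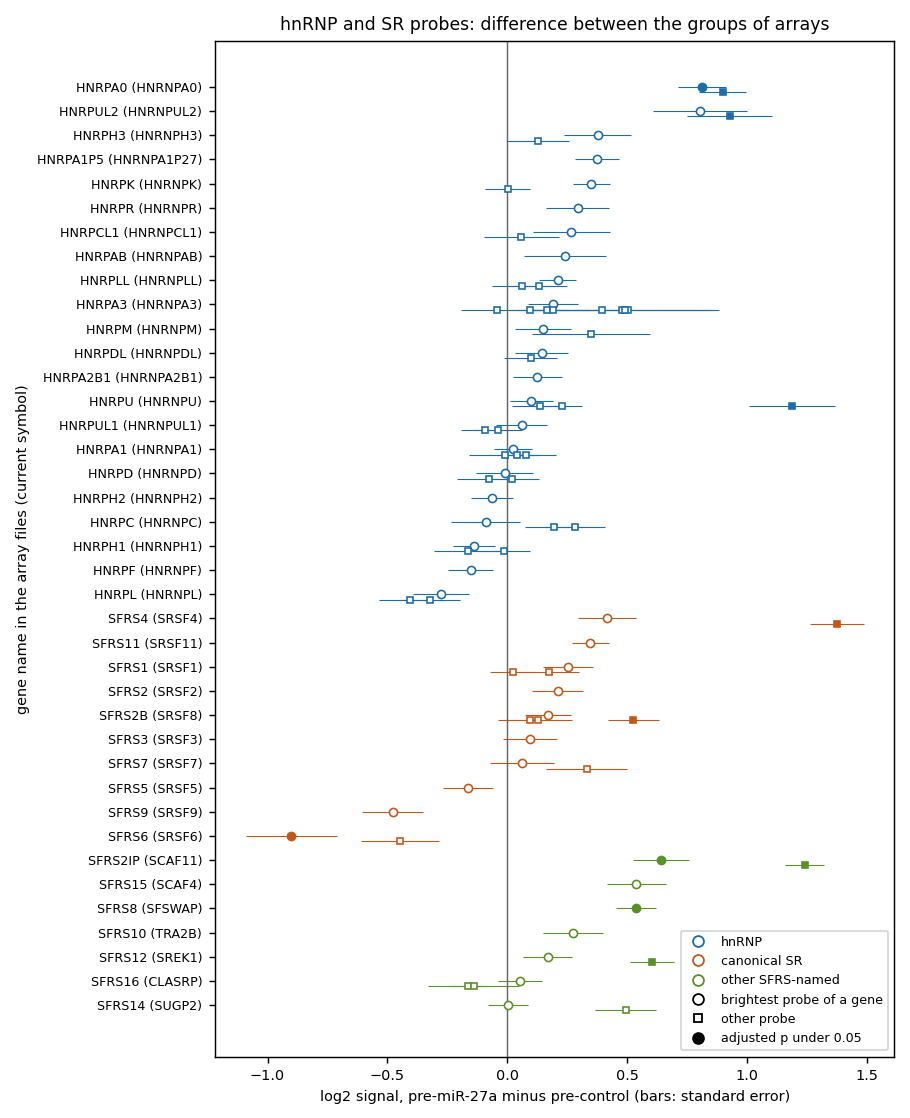
Difference in log2 signal between pre-miR-27a and pre-control arrays (x axis, n = 3 per group, bars are standard errors) for the 85 probes of 39 genes, with the brightest probe of a gene as a circle, its other probes as squares and filled symbols for an adjusted p under 0.05. The 10 filled symbols on the right lie between 0.53 and 1.38 and the single one on the left, SFRS6, at -0.90.

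Among the hnRNP genes the change seen on every probe of a gene was that of HNRPA0 (HNRNPA0, chr5, hg18), a small relative of hnRNP A1 that binds AU-rich elements of mRNAs. Its brighter probe, A_23_P252449, read 13.43, 13.64 and 13.44 log2 units on the pre-control arrays and 14.30, 14.42 and 14.22 on the pre-miR-27a arrays. All pre-miR-27a arrays lay above all pre-control arrays. The means, 13.50 ± 0.11 and 14.31 ± 0.10 (SD, n = 3), differed by 0.81 (SE 0.10), or 1.76-fold, with a limma adjusted p of 0.0188. Its other probe, A_24_P371670, 835 bases towards the 5′ end, rose by 0.90 (SE 0.10, 1.86-fold, adjusted p = 0.0176), again without overlap.

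HNRPUL2 (HNRNPUL2, chr11), a relative of the chromatin- and RNA-binding protein hnRNP U, gave similar differences on its 2 probes. Probe A_24_P917449 read 8.24, 8.34 and 8.07 in pre-control and 8.85, 9.46 and 9.13 in pre-miR-27a cells. It rose by 0.93 (SE 0.18, adjusted p = 0.0383). The brighter probe A_23_P409626 read 9.33, 10.06 and 9.74 against 10.49, 10.62 and 10.44, a difference of 0.80 (SE 0.20, adjusted p = 0.0672) that did not pass the threshold. On both probes every pre-miR-27a array was above every pre-control array, and the 3 pre-control arrays of the brighter probe were the more spread (SD 0.37 against 0.09).

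HNRPU (HNRNPU, chr1), which binds both RNA and scaffold regions of DNA, was called on 1 of its 4 probes. Probe A_24_P171110 (chr1:243094114-243094173, hg18, gene on the minus strand) read 9.08, 8.85 and 8.61 in pre-control and 10.12, 10.24 and 9.75 in pre-miR-27a cells, without overlap. It rose by 1.19 (SE 0.18), or 2.28-fold, with an adjusted p of 0.0249. The remaining 3 probes differed by 0.10, 0.23 and 0.14, with adjusted p from 0.163 to 0.558. On the one at 0.23 the groups did not overlap either. The probe that rose is assigned in the array design to another RefSeq transcript of the gene than those 3, and it lies 9012 bases towards the 5′ end from the brightest of them.

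No hnRNP probe was called lower by limma, where 2 of 55 were lower at an unadjusted p under 0.05 (4799 of all 36469 probes were). With the replicate block 0 were lower. The most negative hnRNP gene was HNRPL (HNRNPL, chr19), which binds CA-rich RNA. Its brightest probe read 13.11, 13.20 and 12.99 in pre-control and 12.83, 12.98 and 12.65 in pre-miR-27a cells, a difference of -0.28 (SE 0.12, adjusted p = 0.216). Its other probes differed by -0.40 and -0.32, and pre-miR-27a arrays were below all pre-control arrays on all 3 probes. The first 2 of these probes overlap in sequence position, so they are not separate readings of the transcript. HNRPF (HNRNPF), which binds runs of G, differed by -0.15 (SE 0.10, adjusted p = 0.391), and its groups overlapped.

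The hnRNP genes whose probes had the highest signal showed small differences. HNRPA1 (HNRNPA1), a shuttling repressor of exon inclusion, read 16.70, 16.64 and 16.74 against 16.70, 16.80 and 16.65 on its brightest probe. Over its 4 probes the differences ran from -0.01 to 0.08, and the groups overlapped on each. HNRPM (HNRNPM) differed by 0.15 (SE 0.12) on its brightest probe and HNRPD (HNRNPD, also AUF1, which binds AU-rich mRNAs) by -0.01 (SE 0.12), both with overlapping groups. With 75th percentile scaling the brightest probes of HNRPA1 and HNRPM turned to -0.16 and -0.029, so their small positive differences depended on the scaling.

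HNRPA3 (HNRNPA3, chr2), a relative of hnRNP A1 and A2, had the most probes and is given here after its values were seen. Its 9 probes differed between groups by -0.04 to 0.51, and none was called (lowest adjusted p = 0.110 without and 0.0657 with the replicate block). At an unadjusted p under 0.05, 11 of the 55 hnRNP probes were higher, as were 4238 of all 36469. The 3 probes nearest the 5′ end of HNRPA3, between 177785764 and 177788634 of chr2, behaved alike. Neighbours among them overlap in position, so the 3 are not separate readings of the transcript. Of these, A_24_P488588 read 12.41, 11.78 and 11.35 in pre-control and 12.65, 12.56 and 11.84 in pre-miR-27a cells. On all 3 the replicate 1 array was the highest and the replicate 3 array the lowest of its group, with SDs of 0.45 to 0.62, where the other 6 probes of the gene had SDs of 0.05 to 0.22.

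Among the canonical SR genes 2 probes rose and 1 fell. The largest difference was that of SFRS4 (SRSF4, chr1), an SR protein with a pair of RNA recognition motifs. Its probe A_24_P148086 (chr1:29353873-29353932, hg18, minus strand) read 7.99, 7.99 and 7.87 in pre-control and 9.37, 9.46 and 9.13 in pre-miR-27a cells. The groups were far apart, and the difference was 1.38 (SE 0.11), or 2.59-fold, with an adjusted p of 0.0176. The brightest probe of the gene, A_23_P126197 (chr1:29347086-29347145), read 13.43, 13.25 and 13.06 against 13.73, 13.70 and 13.56. This difference of 0.42 (SE 0.12) had an adjusted p of 0.0991 and passed the threshold with the replicate block (adjusted p = 0.0443).

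SFRS6 (SRSF6, chr20), an activator of exon inclusion, was the only member called lower. Probe A_32_P11786 (chr20:41523477-41523536, hg18, plus strand) read 11.35, 11.79 and 11.34 in pre-control and 10.37, 10.89 and 10.53 in pre-miR-27a cells. It fell by 0.90 on the log2 scale (SE 0.19), to 0.536 of the pre-control signal, with an adjusted p of 0.0487. This call was close to the threshold and was lost when no filter on dim probes was used (adjusted p = 0.0523). Its second probe, 445 bases towards the 5′ end, read 10.79, 11.05 and 10.64 against 10.35, 10.62 and 10.17, a difference of -0.45 (SE 0.16, adjusted p = 0.167, and 0.0340 with the replicate block). On both probes all pre-miR-27a arrays lay below all pre-control arrays.

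SFRS2B (SRSF8, chr11), a close relative of SRSF2, rose on 1 of 4 probes. Probe A_23_P116013 read 9.04, 8.80 and 8.98 against 9.34, 9.50 and 9.56, a difference of 0.53 (SE 0.11, adjusted p = 0.0438), which missed the threshold with the replicate block (0.0560) and with 75th percentile scaling (0.0502). The other 3 probes, on which the groups overlapped, differed by 0.10 to 0.17.

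SFRS11 (SRSF11, chr1) read 13.39, 13.26 and 13.29 in pre-control and 13.70, 13.63 and 13.64 in pre-miR-27a cells, without overlap. Its difference of 0.35 (SE 0.08) had an adjusted p of 0.0534, and 0.0402 with the replicate block. SFRS7 (SRSF7), an SR protein with a zinc knuckle, differed by 0.06 on its brightest probe and by 0.33 on the other (adjusted p = 0.299, and 0.0466 with the block), with overlapping groups on both. SFRS9 (SRSF9, chr12) read 14.05, 14.07 and 13.99 against 13.49, 13.81 and 13.38. Its pre-miR-27a arrays were all below the pre-control arrays, and the difference of -0.48 (SE 0.13) had an adjusted p of 0.0835.

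SFRS5 (SRSF5) differed by -0.16 (SE 0.10, adjusted p = 0.394) with overlapping groups. SFRS3 (SRSF3) and SFRS2 (SRSF2, also SC35), whose probes were with SFRS7 the brightest of the canonical SR genes, differed by 0.09 and 0.21 (adjusted p = 0.670 and 0.297). The groups overlapped for SFRS3 and not for SFRS2. With 75th percentile scaling SFRS3 and the brightest probe of SFRS7 both turned to -0.094.

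Among the other genes named SFRS, SFRS2IP (SCAF11, chr12), an SR-related protein first named for its binding to SRSF2, rose on both probes. Probe A_24_P393605 (chr12:44608027-44608086, hg18, minus strand) read 10.63, 10.58 and 10.68 in pre-control and 11.90, 11.93 and 11.78 in pre-miR-27a cells. The groups were separate with little spread, and the difference of 1.24 (SE 0.08), or 2.36-fold, had an adjusted p of 0.0161. The brightest probe, A_23_P87839, read 12.21, 12.17 and 12.48 against 12.80, 12.99 and 12.99 and rose by 0.64 (SE 0.12, 1.56-fold, adjusted p = 0.0363).

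SFRS8 (SFSWAP, chr12), the relative of a fly protein that controls the splicing of its own transcript, has 1 probe here, which read 11.54, 11.47 and 11.46 against 12.14, 11.98 and 11.97. It rose by 0.54 (SE 0.08, 1.45-fold, adjusted p = 0.0256), without overlap. SFRS12 (SREK1, chr5), which modifies the activity of SR proteins, rose on probe A_24_P595877, which read 7.46, 7.33 and 7.52 against 7.95, 8.08 and 8.10. This difference was 0.61 (SE 0.09, adjusted p = 0.0248), whereas the brightest probe differed by 0.17 (SE 0.10, adjusted p = 0.374) with overlapping groups. With normexp background correction the difference of A_24_P595877 became 0.28 (adjusted p = 0.0578).

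SFRS15 (SCAF4, chr21), which binds the tail of RNA polymerase II, read 9.51, 9.54 and 9.77 against 10.26, 10.21 and 9.97. The groups did not overlap, and the difference of 0.54 (SE 0.12) had an adjusted p of 0.0569. SFRS14 (SUGP2, chr19) differed by less than 0.01 on its brightest probe and by 0.49 (SE 0.13, adjusted p = 0.0750, and 0.04996 with the block) on probe A_23_P16562, which read 10.58, 10.29 and 10.37 against 10.94, 10.73 and 11.05.

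SFRS4, SFRS8 and SFRS11 are the members that the study lists among predicted targets of miR-27a in enriched functional categories. All 3 had every pre-miR-27a array above every pre-control array on the brightest probe, as had 3133 of all 25056 named genes. The study drew that list from genes that differed on these same arrays, so it is not independent evidence of a direction. Being limited to those categories, it does not tell whether other members are predicted targets.

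No probe of the members was called in each of the 6 fits that left out 1 array. Without pre-control replicate 1 there were 5 member probes called higher. Leaving out any one of the other 5 arrays gave 0 by limma, where 17 to 24 member probes were higher at an unadjusted p under 0.05. The same held over the whole array, where 706 probes were called higher and 489 lower without pre-control replicate 1 and 0 in the other 5 fits. The member lower call was lost in all 6 fits, with 2 to 6 member probes lower at an unadjusted p under 0.05.

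The second question was how hnRNP and SR genes compared, each gene by its brightest probe. Over the 22 hnRNP genes the median log2 difference was 0.15, with 16 above and 6 below 0. Over the 10 canonical SR genes it was 0.13, with 7 above and 3 below. The 7 other SFRS-named genes were all above 0, with a median of 0.27. Over all 25056 named genes the median was -0.04, with 43.8% above 0. To more digits the hnRNP and canonical SR medians were 0.147 and 0.132. The quartiles over single genes were -0.0026 and 0.29 in the hnRNP class and -0.11 and 0.24 in the canonical SR class. With the mean of all probes of a gene the medians were 0.149 for hnRNP and 0.173 for canonical SR, so their order turned.

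Calls by the brightest probe were 1 higher and 0 lower for hnRNP (0 also lower at an unadjusted p under 0.05 and with the block), 0 higher and 1 lower for canonical SR (2 higher at an unadjusted p under 0.05, and 2 with the block), and 2 higher and 0 lower for the other SFRS-named genes (0 lower at an unadjusted p under 0.05 and with the block). Of all genes 7.18% were called this way, 3.02% higher and 4.16% lower. Counted by probe, 4 of 55 hnRNP probes (7.27%) and 7 of 30 SFRS-named probes (23.3%) were called, where 7.83% of all probes were. In each class 2 of the called probes belong to 1 gene, HNRPA0 and SFRS2IP, and the difference between the classes was not tested.

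The class medians also moved with single arrays and with the scaling. As a median deviation of genes from their own mean over the 6 arrays, the hnRNP class lay at -0.07, -0.03 and -0.13 on the pre-control arrays and at 0.03, 0.19 and -0.02 on the pre-miR-27a arrays. The canonical SR class lay at -0.08, 0.0036 and -0.06 against 0.02, 0.15 and 0.04. The other SFRS-named class had the widest gap, -0.21, -0.13 and -0.11 against 0.16, 0.21 and 0.09. In every class pre-miR-27a replicate 2 was the highest array. With 75th percentile scaling the median differences became 0.0014 for hnRNP, -0.013 for canonical SR and 0.16 for the other SFRS-named genes, where that of all probes went from -0.02 to -0.09, so a direction for the hnRNP and canonical SR classes as a whole depended on the scaling.

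**Figure D2:**
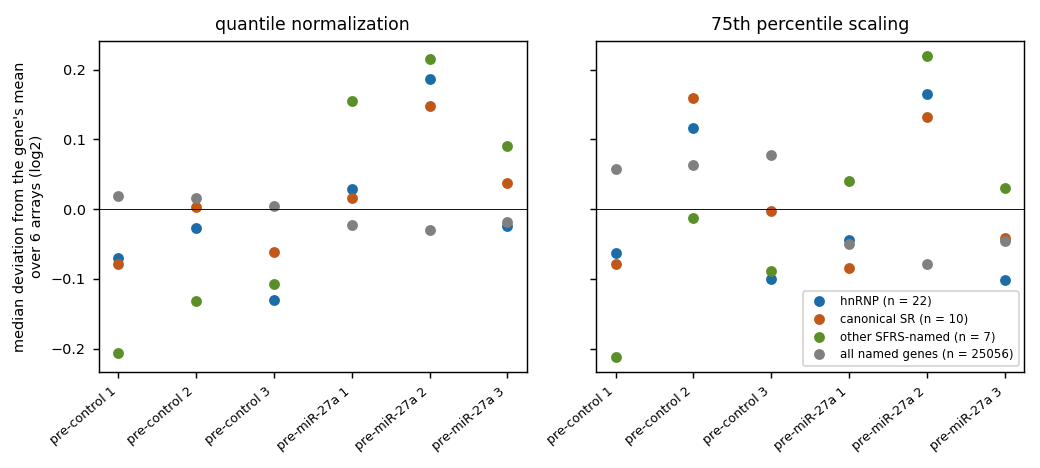
Median deviation of the genes of a class from their own mean over 6 arrays (y axis, log2 units) on each array, after quantile normalization (left) and 75th percentile scaling (right). On the left each class is lower on the 3 pre-control than on the 3 pre-miR-27a arrays, and on the right this holds only for the 7 other SFRS-named genes.

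The third question was whether the probes of a gene changed alike. Of the member genes 25 had more than 1 probe, which gave 46 pairs of a gene's brightest probe with another. The test was made on the difference between both probes within each array, so that it asks whether they changed unequally, over all 9047 such pairs in 6762 genes. Of the member pairs 6 were called, in SFRS4, HNRPU, SFRS2IP, SFRS14, SFRS12 and SFRS6, where 16.5% of all pairs were called. That is 1 of 33 hnRNP pairs, 2 of 8 canonical SR pairs and 3 of 5 pairs of the other SFRS-named genes. Of the 46 pairs 9 had differences of opposite sign (19.6%), against 37.3% of all pairs. The member probes were brighter, with a median log2 signal of 12.96 against 8.62 over all probes. HNRPA3, with 9 probes, gave the most member pairs. The part of these in that contrast was not tested.

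The pair that differed with the lowest p was that of SFRS4. The log2 signal of A_24_P148086 minus that of A_23_P126197 was -5.44, -5.27 and -5.19 on the pre-control arrays and -4.36, -4.24 and -4.43 on the pre-miR-27a arrays. The former probe thus rose by 0.96 more (SE 0.10, limma adjusted p = 0.00774). This was the 1 member pair called in all 6 fits without an array, with values of 0.89 to 1.02.

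For HNRPU the same quantity, A_24_P171110 minus A_23_P160862, was -5.45, -5.79 and -5.98 in pre-control and -4.60, -4.54 and -4.81 in pre-miR-27a cells. The groups did not overlap, and the unequal change was 1.09 (SE 0.16, adjusted p = 0.0130), called in 4 of the 6 fits without an array. For SFRS2IP it was 0.60 (SE 0.11, adjusted p = 0.0231), between 2 probes that both rose. For SFRS14 it was 0.49 (SE 0.11, adjusted p = 0.0331, and 0.0623 with the block). For SFRS12 the difference of 0.44 (SE 0.10, adjusted p = 0.0430) became 0.11 (adjusted p = 0.437) with normexp background correction. For SFRS6 it was 0.45 (SE 0.11, adjusted p = 0.0498), between 2 probes that were both lower, and it was called in 0 of the 6 fits without an array (adjusted p = 0.0638 to 0.129).

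**Figure D3:**
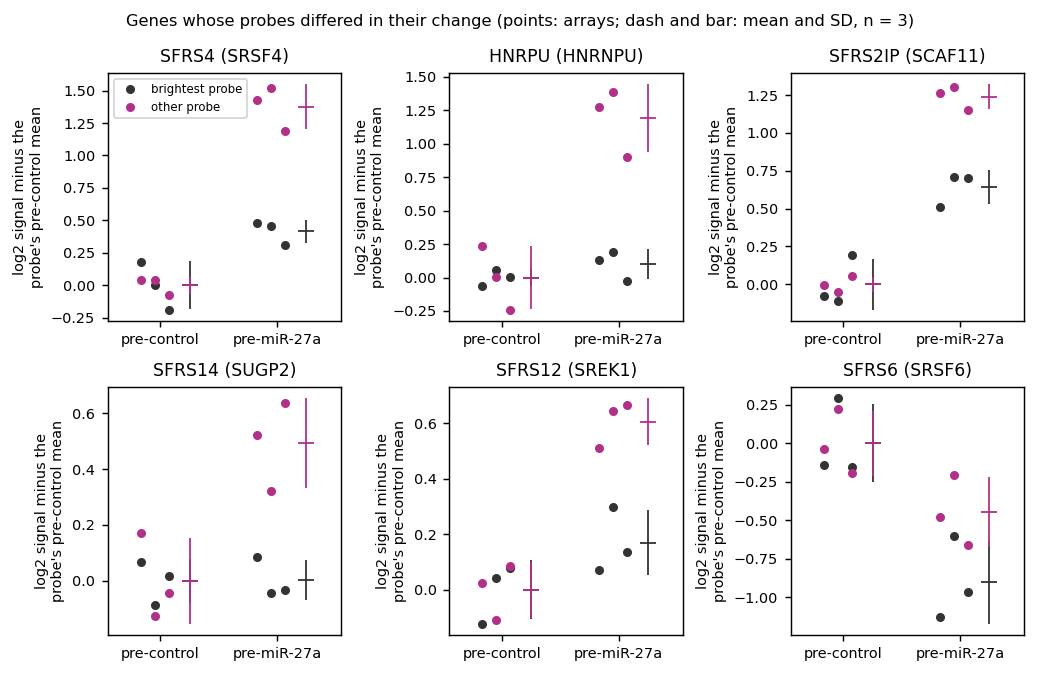
Log2 signal minus the probe's own pre-control mean (y axis) on each array for the brightest probe (black) and the other probe (purple) of the 6 genes whose probes changed unequally, with group mean and SD (n = 3). In SFRS4 the other probe rose by 1.38 and the brightest differed by 0.42, and in SFRS6 both were lower, by 0.90 for the brightest and 0.45 for the other.

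In all 6 called pairs the less bright probe had the higher difference, as in 957 of the 1497 called pairs of the whole array. In 5 of the 6 it lay towards the 5′ end of the gene, 6787 bases from the brightest probe in SFRS4, 9012 in HNRPU, 6242 in SFRS2IP, 13275 in SFRS12 and 445 in SFRS6, and in SFRS14 it lay 10136 bases towards the 3′ end (genomic distances, hg18). Among the called pairs of all genes the 5′ probe was the higher in 63.8%. The median of 5′ minus 3′ differences over all positioned pairs, called or not, was 0.04 in the 44 member pairs and 0.02 in all 8844. The background intensity and spike-in signals given above also differed between the slides, and their part in these pair differences was not tested. Whether a probe lies in an exon, an intron or an untranslated region was not analysed here, since no hg18 annotation was used.

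**Figure D4:**
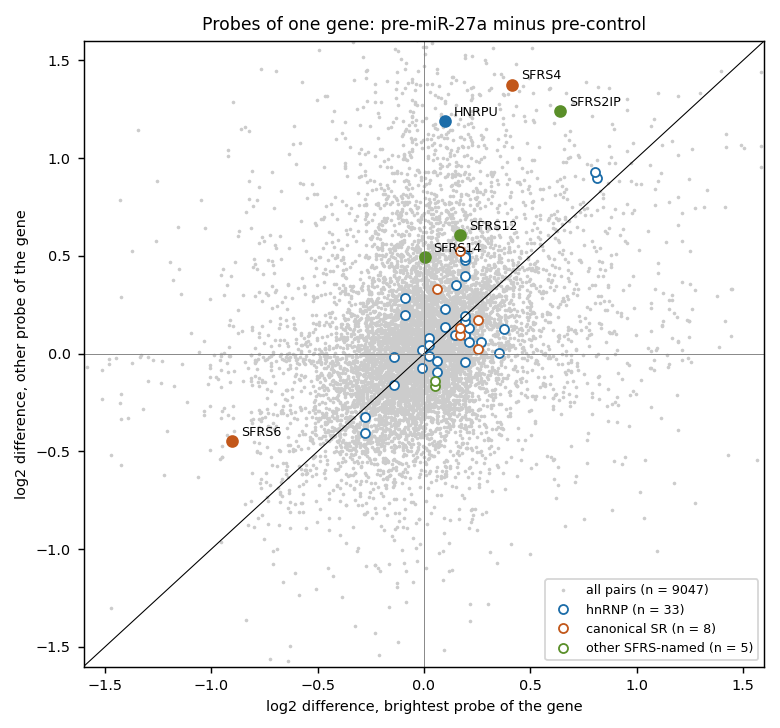
Log2 difference, pre-miR-27a minus pre-control, of the brightest probe (x axis) and of another probe (y axis) of the same gene, for 9047 pairs of the array (grey) and the 46 pairs of splicing factor genes (coloured by class, filled where the adjusted p of the unequal change is under 0.05). The 6 filled pairs lie above the line of equal change, and HNRPA0, with 0.81 and 0.90, lies near it.

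Probes agreed in some of the other genes, although a pair that was not called is not by itself agreement. HNRPA0 and HNRPUL2, with pair differences under 0.15, HNRPL, with all 3 probes below 0, and HNRPA1, with 4 probes near 0, had no called pair. HNRPC (HNRNPC), which binds runs of U, has a probe that the array design places on chr2 while the other 2 lie in the gene on chr14, so signal from the gene and from another copy cannot be told apart there. That probe differed by 0.28 and the others by -0.09 and 0.20, all with overlapping groups and none called. Within arrays, the differences from the brightest HNRPC probe did not overlap between groups. They were 0.29 (SE 0.07, limma adjusted p = 0.0508) for the other chr14 probe and 0.37 (SE 0.13, adjusted p = 0.109) for the chr2 probe. HNRPK (HNRNPK) differed by 0.35 on its brightest probe and 0.0021 on the other. This pair difference of -0.35 (SE 0.10, adjusted p = 0.0725) was also without overlap. HNRPA1P5 (HNRNPA1P27) is a pseudogene, and its difference of 0.37 (adjusted p = 0.0676) cannot be separated from near-identical copies.

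Other genes of splicing were described by 5 lists, by the brightest probe of each gene. Of 118 listed genes 112 were measured, with a median difference of 0.05, and 3 rose and 1 fell, where 7.18% of all genes were called. By the same measure 3 of the 39 member genes were higher and 1 lower. Less bright probes are not in these counts. Such a probe was called in LUC7L3, SRRM1, RBM17, U2AF1, MBNL1, KHDRBS1 and SYNCRIP, whose highest probe differences were 0.43 to 0.92. One was also called in U2AF1L4, whose probes were all below 0 (lowest -0.90). Core proteins of the small nuclear ribonucleoproteins, 32 genes, had a median of -0.07 and 0 calls by limma (1 higher and 5 lower at an unadjusted p under 0.05, and 1 higher and 2 lower with the block). The 7 kinases that phosphorylate SR proteins had a median of 0.09 and 0 calls, also 0 at an unadjusted p under 0.05, and with the block SRPK3 was lower (-0.47, adjusted p = 0.0486).

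Of the 17 factors of the branch site and 3′ splice site, median 0.01, SF3A2, a subunit of the U2 particle, read 13.36, 13.35 and 13.22 in pre-control and 12.88, 12.69 and 12.71 in pre-miR-27a cells. It fell by 0.55 (SE 0.09, adjusted p = 0.0284), without overlap. Of the 15 SR-related and SR transport factors, median 0.19, RBM25, which binds RNA near splice sites, read 11.59, 12.05 and 11.96 against 12.48, 12.77 and 12.68. It rose by 0.78 (SE 0.15, adjusted p = 0.0408) on this brightest probe and differed by 0.33 on its other one.

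Of the 41 other RNA-binding regulators, median 0.11, RBFOX2 and RBM38 rose. RBFOX2, a splicing regulator active in muscle, read 11.56, 11.07 and 11.24 against 12.21, 12.01 and 12.06, a difference of 0.80 (SE 0.15, adjusted p = 0.0355). RBM38 rose by 0.42 (SE 0.09, adjusted p = 0.0455) on its brightest probe and differed by 0.04 on its other one. With the replicate block the 5 lists held 7 genes higher and 5 lower, where 13.9% of all genes were called, 5.91% higher and 7.99% lower.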

How the data were processed

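The authors scanned Cy3-labelled RNA of 6 arrays, and the deposited files hold, per the file headers, the processed intensity of each spot from Feature Extraction 10.5.1.1 with mean intensity, local background and quality flags, and probe positions on hg18. These intensities are background-subtracted within an array and not normalized between arrays. A table of processed log2 values was deposited too; it holds the 85 member probes, and its values differed from those computed here by a median of 0.0040 and at most 1.16 log2 units (column medians 9.13 to 9.22).

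As the study's methods describe, log2 intensities were quantile normalized, spots not found were set to missing and probes missing on more than 1 array were removed. This kept 36469 probes where the deposited table holds 33169, so it does not recover the authors' filter; the flag for a positive and significant signal, an alternative, kept 33189. The study's SAM test was not run here; the groups were compared in limma (3.58.1, under R 4.3.3, with files read by data.table version 1.17.8) by lmFit and eBayes, with Benjamini-Hochberg adjustment over all probes and a threshold of 0.05. With 3 arrays against 3, an exact permutation test of a single probe cannot go below p = 0.1, and the number of arrays limits the precision. Pairs of probes were fitted the same way on their within-array difference. The fits were run on simulated data with independent noise for each array. These data held no slide difference and no link between same-numbered arrays, so they do not check the fits against either.

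Same-numbered arrays deviated together (r = 0.40, 0.46 and 0.41 over 31717 probes, against -0.27 to -0.12 for other pairs), so the numbers meet the criterion for pairing. Deviations within a group cancel out over its arrays, so the negative values follow from the positive ones and are not a separate contrast. Results are nevertheless from the fit without a block, as chosen in the design, with blocked values printed beside calls that they change; the number also equals the position on the slide, and position and preparation cannot be told apart. No arrays were identical (r = 0.984 to 0.994).

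Gene names are those of the array design, with present symbols from a RefSeq table (85 of 86 member probes matched). Genes are named in the text if a probe or pair passed 0.05 in either fit, if among the 5 largest differences each way or the 5 largest pair differences, if listed as predicted targets, or if among the 3 brightest of each family, 22 genes in all; others named were chosen after their values were seen. The members and lists were chosen with earlier results of these data known. The alternatives tried were normexp background correction (offset 50), scaling by the 75th percentile, other filters and flags, the replicate block, the deposited log2 values, a variance trend with robust estimation, the mean of a gene's probes and leaving out each array.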

Additional observations from a re-analysis of the deposited data

How the results depend on the processing

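In the 8 alternatives that kept all 6 arrays the member probes called higher numbered 10 to 14, against 10. Member probes called lower, 1 as reported, were 2 with normexp and with the replicate block and 0 without a filter on dim probes. Pairs of probes called, 6 as reported, were 10 with the filter on probes well above background and 5 with the replicate block. Genes of the 5 lists called higher, 3 as reported, were 7 with normexp, 6 with the filter on probes well above background, 7 with the replicate block and 8 with the variance trend and robust estimation; those called lower, 1 as reported, were 2 with normexp, with that filter, with the flag for a positive and significant signal and with the deposited log2 values, 5 with the block and 4 with the variance trend. Class medians moved with 75th percentile scaling to 0.0014 (hnRNP), -0.013 (canonical SR) and 0.16 (other SFRS-named), and with the mean of all probes of a gene to 0.17 (canonical SR) and 0.39 (other SFRS-named). Turned signs, all of uncalled values, were -0.16 for HNRPA1, -0.029 for HNRPM, -0.026 for the brightest probe of HNRPU, -0.066 for SFRS14, -0.094 for SFRS3 and -0.094 for SFRS7 with 75th percentile scaling, and -0.0021 for SFRS14 with the deposited values. Leaving out 1 array gave 0 to 5 member probes called higher and 0 called lower, 1 to 6 called pairs, and 0 to 1 list genes higher and 0 lower. The medians were then 0.09 to 0.19 (hnRNP), 0.078 to 0.15 (canonical SR) and 0.21 to 0.37 (other SFRS-named). The nonzero counts of called probes came only without pre-control replicate 1. Signs also turned for the brightest probes of HNRPA1 (-0.016 to 0.056), HNRPD (-0.094 to 0.078), SFRS14 (-0.039 to 0.036) and SFRS7 (-0.043 to 0.15), all uncalled. Fits without an array hold fewer arrays by construction, and the cause of the other moves was not tested. Of the other values, 423 kept their side and sign, 90 lost and 18 gained the threshold. All member probes compared were well above background on every array, yet with normexp the call of SFRS12 (0.28, adjusted p = 0.0578) and that of its pair (0.11, adjusted p = 0.437) were lost. Slide stays confounded with treatment.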
